A study of Mus musculus with 9 samples.

Results

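A group of 9 synaptic adhesion genes is described across whole-brain RNA-seq libraries of mice with diabetic neuropathic pain. They are the neurexins Nrxn2 and Nrxn3, the neuroligins Nlgn1, Nlgn2 and Nlgn3, the LRRC4 family genes Lrrc4, Lrrc4b and Lrrc4c, and Igsf9b. They were taken by gene name from tables of 53465 genes, and all 9 passed the filter on low counts that kept 18501 genes for testing. The libraries came from male C57BL/6 mice aged 7 weeks at the start, with 3 mice per group and a separate library for each mouse. CON mice were controls that received saline. DNP mice had 4 weeks of a 60% fat diet followed by 7 daily doses of streptozotocin (50 mg/kg), which destroys the insulin-producing cells of the pancreas. They were tested for hypersensitivity 4 weeks later and received saline. BAC mice had the same diet and streptozotocin and were then given baclofen, which activates GABA-B receptors, at 8 mg/kg intraperitoneally for 7 days. All DNP and BAC mice therefore carried both the diet and the toxin, whose effects cannot be told apart here.

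Neurexins sit in the presynaptic membrane and bind partners across the synaptic cleft, among them the neuroligins of the postsynaptic side. Nlgn1 is known mainly from excitatory synapses, Nlgn2 from inhibitory synapses and Nlgn3 from both. The LRRC4 family, also called netrin-G ligands, are leucine-rich repeat proteins of the postsynaptic membrane: Lrrc4c binds netrin-G1, Lrrc4 binds netrin-G2, and Lrrc4b binds receptor phosphatases of the LAR type. Igsf9b is an immunoglobulin-type adhesion protein of inhibitory synapses, linked to Nlgn2 through a scaffold protein.

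The LRRC4 genes gave both the largest decrease and the only increase among the 9 genes in DNP, so the starts of these 3 genes are shown. The sequences are from RefSeq on GRCm38.p6, each the 250 bases before an annotated start, with every CG pair in capitals. The Lrrc4 window is chr6:28831748-28831997 on the minus strand, the Lrrc4b window is chr7:44442237-44442486 on the plus strand, and the Lrrc4c window is chr2:96317919-96318168 on the plus strand.
Lrrc4: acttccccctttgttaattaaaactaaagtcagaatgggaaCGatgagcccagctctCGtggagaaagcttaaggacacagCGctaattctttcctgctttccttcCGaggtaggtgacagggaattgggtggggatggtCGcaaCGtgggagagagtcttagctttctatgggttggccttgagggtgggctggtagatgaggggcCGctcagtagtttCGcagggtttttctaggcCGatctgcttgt
Lrrc4b: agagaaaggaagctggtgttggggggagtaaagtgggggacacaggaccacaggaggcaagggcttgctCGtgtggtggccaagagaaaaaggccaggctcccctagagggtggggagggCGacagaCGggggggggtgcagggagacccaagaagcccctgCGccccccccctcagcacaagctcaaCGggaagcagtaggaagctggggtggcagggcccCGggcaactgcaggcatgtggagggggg
Lrrc4c: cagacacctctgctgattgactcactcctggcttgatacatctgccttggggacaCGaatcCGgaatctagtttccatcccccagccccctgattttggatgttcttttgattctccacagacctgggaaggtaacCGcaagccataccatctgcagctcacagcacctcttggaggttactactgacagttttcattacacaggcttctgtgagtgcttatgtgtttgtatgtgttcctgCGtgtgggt
Lrrc4 had 9 CG pairs and 51.2% G and C in its window, Lrrc4b had 6 CG pairs and 66.0%, and Lrrc4c had 4 CG pairs and 49.6%, beside medians of 6 CG pairs and 52.4% over 32851 windows of all genes. The 3 windows differ in base composition, and none held any of 4 motifs searched on both strands. These were GGGCGG (the GC box, in 32.7% of all windows), TGACGTCA (CRE, 1.55%), CACGTG (E-box, 6.02%) and TATAAA (12.4%). The Lrrc4b window lies inside the annotated gene, since another transcript starts upstream of it, and 2 of its bases are exonic. Windows were found for 6 of the 9 genes, and Nlgn2, with 18 CG pairs, was the one whose window held the GC box.

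The genes differ in size and setting on GRCm38. Lrrc4b spans chr7:44429018-44463351 on the plus strand with 2929 exonic bases. Lrrc4 (chr6:28661831-28831747, minus strand) overlaps the Snd1 locus on the opposite strand but shares no exonic base with it. Lrrc4c (chr2:96318169-97631666, plus strand) and Nrxn3 (chr12:88722876-90334935, plus strand) each span over a megabase. Nrxn2 lies at chr19:6418731-6544169 and shares 4.94% of its exonic bases with Slc22a12 on the other strand. Nlgn2 lies at chr11:69823122-69837784, Nlgn1 at chr3:25426215-26332460 and Igsf9b at chr9:27299204-27357546. Nlgn3 (chrX:101299168-101325963) shares 41.2% of its exonic bases with the transcript Gm21986 on the same strand, so its counts are uncertain. The libraries did not keep strand, and reads of overlapping genes such as Nlgn1 and its antisense gene A830092H15Rik, which covers 9.16% of its exonic bases, cannot be told apart.

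The libraries held 13107382 to 16008129 counts on genes, so for the 9 genes counting error was small beside the differences between mice over all libraries. Within DNP this did not hold for Nrxn2. The libraries also differed in the brain regions they held, although all are labelled whole brain. Summed cerebellum markers (11 of 11 genes measured) ran from 248 to 6215 CPM (counts scaled to a common library size) in CON, 278 to 690 in DNP and 242 to 3167 in BAC, and Gabra6, a granule cell gene of the cerebellum, had 0 counts in DNP 2, DNP 3 and BAC 2. Summed brainstem and spinal cord markers (10 of 10 measured) were 1.39 to 29.3 CPM in CON, 0.263 to 394 in DNP and 0.414 to 432 in BAC, high only in DNP 1, BAC 1 and BAC 3, while Hoxa3, Hoxa5, Hoxb3 and Hoxc4 had 0 counts in the other 6 libraries. Oligodendrocyte markers (6 of 6) summed to 1979 to 2814 CPM in CON, 3387 to 8508 in DNP and 2701 to 8712 in BAC, and blood markers (5 of 5) to 188 to 218, 477 to 683 and 471 to 735. Meningeal markers (6 of 6) summed to 53.7 to 74.4 CPM in CON, 28.4 to 43.2 in DNP and 50.3 to 88.8 in BAC, so that DNP lay below both other groups. Endothelial markers (5 of 5) summed to 158 to 188, 138.5 to 195 and 97.5 to 136, with BAC below both other groups. Markers of excitatory forebrain neurons (8 of 8) ran from 605 to 1904 CPM in CON, 487 to 1323 in DNP and 189 to 1250 in BAC, and choroid plexus markers (5 of 5) from 14.2 to 1379 over all libraries. Summed markers of neurons in general, inhibitory neurons, astrocytes, oligodendrocyte precursors and microglia overlapped between all groups. Mitochondrial genes took 4.34% to 5.36% of counts in CON, 6.68% to 7.01% in DNP and 5.94% to 7.23% in BAC. In bulk tissue, fewer cells of a type and less RNA per cell cannot be told apart. Results are therefore also given for the libraries poor in cerebellum and brainstem markers (CON 1, CON 3, DNP 2, DNP 3 and BAC 2), a choice made after seeing the data that leaves 1 BAC library, assumed to vary like the other groups. CON 3 still held 1057 CPM of cerebellum markers, against 242 to 314 in the other 4. That is more than DNP 1 held (690) and near BAC 3 (1119), both of which were left out. The label is therefore loose for CON 3, which was poor in brainstem markers only. These libraries remain uneven in cerebellum RNA between CON and the other groups, and its part in their values was not tested. The part of oligodendrocyte, blood, meningeal, endothelial, choroid plexus, forebrain and mitochondrial RNA in the differences below was not tested.

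In levels per length, Nlgn2 and Lrrc4b led the 9 genes. The mean over the 9 libraries in FPKM (fragments scaled to gene length and library total) was 43.5 for Nlgn2 (35.4 to 54.0), 38.8 for Lrrc4b (15.9 to 75.6), 17.3 for Nrxn2 (13.6 to 24.4) and 16.7 for Lrrc4 (2.72 to 25.3). Nlgn3 at 10.2, Nrxn3 at 9.22, Igsf9b at 8.59 and Lrrc4c at 5.93 FPKM followed, and Nlgn1 was lowest at 2.32 (1.34 to 3.27). Each gene overlapped with the next in this order except the last pair, where Lrrc4c exceeded Nlgn1 in 9 of 9 libraries. The order rests on the gene lengths the FPKM values use, for example 21012 bases for Nrxn2, against 13812 exonic bases in GENCODE. In CPM per exonic kilobase the first 4 genes and the last kept their places, and Nrxn3 (16.2) and Lrrc4c (13.0) moved above Nlgn3 (12.2) and Igsf9b (9.77).

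The first comparison asked how the genes differed between diabetic mice with pain and controls. In DNP, 8 of the 9 genes lay below CON and Lrrc4c lay above it, with a median log2 fold change of -0.39 beside 0.01 for all genes tested. With edgeR's quasi-likelihood test and Benjamini-Hochberg adjustment, none of the 9 passed an adjusted p of 0.05, and neither did any other gene (0% of 18501, smallest adjusted p 0.294). Unadjusted p was under 0.05 for 4 of the 9 genes, all lower in DNP (Nrxn2, Nrxn3, Lrrc4b and Igsf9b), where 5.46% of all genes tested were called lower and 5.71% higher by that rule. The CON and DNP libraries did not overlap in CPM for 7 of the 9 genes, 6 lower and 1 higher, beside 8.63% of all genes lower and 9.59% higher. One of the 6, Nlgn2, overlapped in FPKM. Because the 9 genes were chosen with earlier results of these data known, their counts beside these shares are not independent evidence of a difference.

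**Figure D1:**
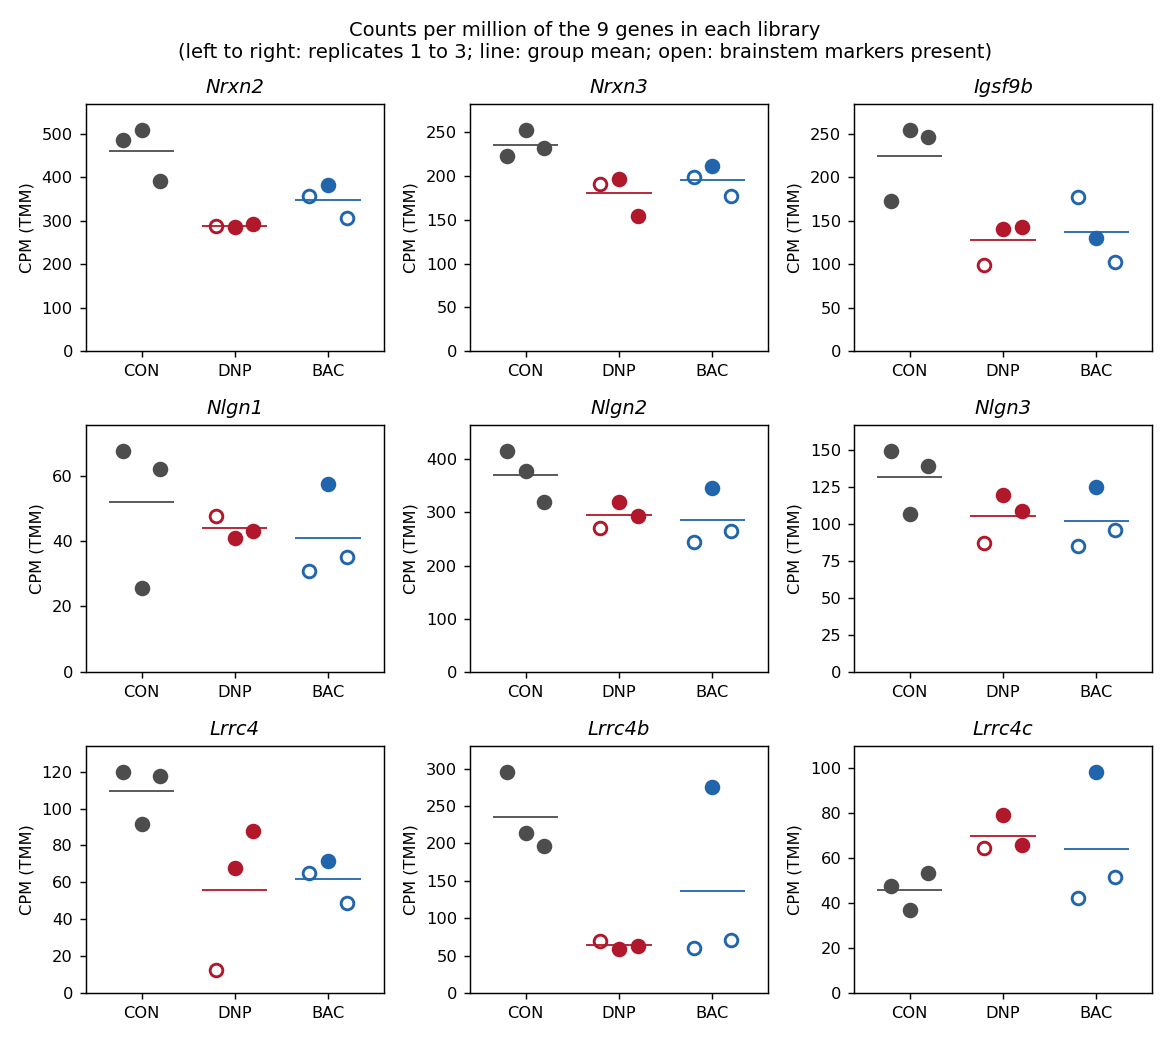
TMM-scaled CPM (vertical axes, from 0) of the 9 genes in each library by group. Points are mice (replicates 1 to 3 from left to right), lines are group means, and open points are the 3 libraries with brainstem markers (DNP 1, BAC 1 and BAC 3). Lrrc4b lay between 58.6 and 70.0 CPM in DNP and between 197 and 296 in CON, and BAC 2 at 276 stood apart from the other BAC libraries.

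Lrrc4b had the lowest DNP level relative to CON of the 9 genes. It had 296, 214 and 197 CPM in CON 1 to 3, 70.0, 58.6 and 62.4 in DNP 1 to 3, and 60.7, 276 and 71.1 in BAC 1 to 3. Every DNP library was below every CON library, and the BAC group split, with BAC 2 inside the CON range and BAC 1 and BAC 3 near DNP. The means were 235.5 ± 52.8, 63.7 ± 5.84 and 136 ± 121 CPM (SD, n = 3 each). Lrrc4b was 3.70-fold lower in DNP than in CON (log2 fold change -1.89, SE 0.54, edgeR adjusted p = 0.327). Its p stayed under 0.05 in all 19 alternatives, with log2 fold changes from -2.06 to -1.69, and its adjusted p ranged from 0.0275 with DESeq2 to 0.637. In the libraries poor in cerebellum and brainstem markers the value was -2.03 (edgeR adjusted p = 0.0868). The study displays genes it describes as responding to baclofen, without naming Lrrc4b in its text. Lrrc4b was chosen here with earlier results of these data known. It may therefore have been chosen on these samples and is not independent evidence of direction.

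The difference of Lrrc4b between BAC and DNP rested on 1 library. The log2 fold change was 1.09 (SE 0.53, edgeR adjusted p = 0.998). Without BAC 2 it was 0.049, and the gap to CON became -1.84 (edgeR adjusted p = 0.253) in place of -0.79 (SE 0.52). Without BAC 1 or BAC 3 it was 1.45 and 1.40, each with an unadjusted p under 0.05. Among the libraries poor in cerebellum and brainstem markers, where BAC 2 is the one BAC library, it was 2.20 (edgeR adjusted p = 0.381). BAC 2 was also the BAC library with the least oligodendrocyte marker RNA (2701 CPM, against 6400 in BAC 1 and 8712 in BAC 3), and the one with the most RNA of excitatory forebrain neuron markers (1250 CPM, against 303 in BAC 1 and 189 in BAC 3). The part of these in the result was not tested. Over the 9 libraries Lrrc4b had a coefficient of variation of 68.9%, above that of 96.3% of the 11111 genes with a mean of at least 10 CPM.

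Lrrc4, the netrin-G2 ligand, was also lower in DNP, but unevenly. It had 120, 91.8 and 117 CPM in CON, 12.2, 67.5 and 87.9 in DNP, and 65.3, 71.5 and 48.6 in BAC. All DNP and BAC libraries lay below all CON libraries, and DNP 1, a library with brainstem markers, lay far below the other two. The log2 fold change of DNP against CON was -0.97 (SE 0.56, edgeR adjusted p = 0.545), and -0.50 without DNP 1. Without DNP 3 it was -1.46, with an unadjusted p under 0.05. In the libraries poor in cerebellum and brainstem markers it was -0.61. BAC differed from CON by -0.83 (SE 0.56) and from DNP by 0.14 (SE 0.56), the latter -0.33 without DNP 1 and 1.03 with the marker scores as covariates. The gap of BAC to CON had an unadjusted p under 0.05 without DNP 1 (-0.83), with these 2 groups alone (-0.82) and in the libraries poor in cerebellum and brainstem markers (-0.72), and was 0.22 with the covariates.

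Lrrc4c, the netrin-G1 ligand, was the gene of the 9 with a higher level in DNP. Its values were 47.6, 37.1 and 53.4 CPM in CON, 64.7, 79.1 and 65.7 in DNP, and 42.3, 98.3 and 51.4 in BAC. The DNP libraries lay above all CON libraries, and the BAC libraries spread over and beyond both groups, with BAC 2 again the highest. The log2 fold change of DNP against CON was 0.60 (SE 0.30, edgeR adjusted p = 0.492), and it was positive in all 19 alternatives (0.45 to 0.72). Without BAC 2, whose spread also enters the shared estimate, its unadjusted p was under 0.05. BAC differed from DNP by -0.13 (SE 0.30), which became -0.58 (edgeR adjusted p = 0.604) without BAC 2.

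The makeup of the LRRC4 family therefore differed between libraries, in shares that do not depend on library scaling. Lrrc4c made up 4.23%, 4.47% and 6.25% of the summed FPKM of the 3 genes in CON, 22.8%, 20.2% and 15.2% in DNP, and 11.9%, 9.70% and 14.5% in BAC. The 3 groups did not overlap in this share, with CON lowest, BAC between and DNP highest. No test was made of these shares, and they were not set beside those of other gene families. Lrrc4c alone did not follow this order, with 42.3, 98.3 and 51.4 CPM in BAC. The low share in BAC 2 came with 276 CPM of Lrrc4b. The shares also rest on the FPKM gene lengths, 10072 bases for Lrrc4c against 4626 exonic bases in GENCODE. Lrrc4b made up 63.0% to 71.9% in CON, 39.4% to 67.5% in DNP and 46.9% to 74.5% in BAC. The high DNP share of Lrrc4b was that of DNP 1, where Lrrc4 made up 9.66%.

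**Figure D2:**
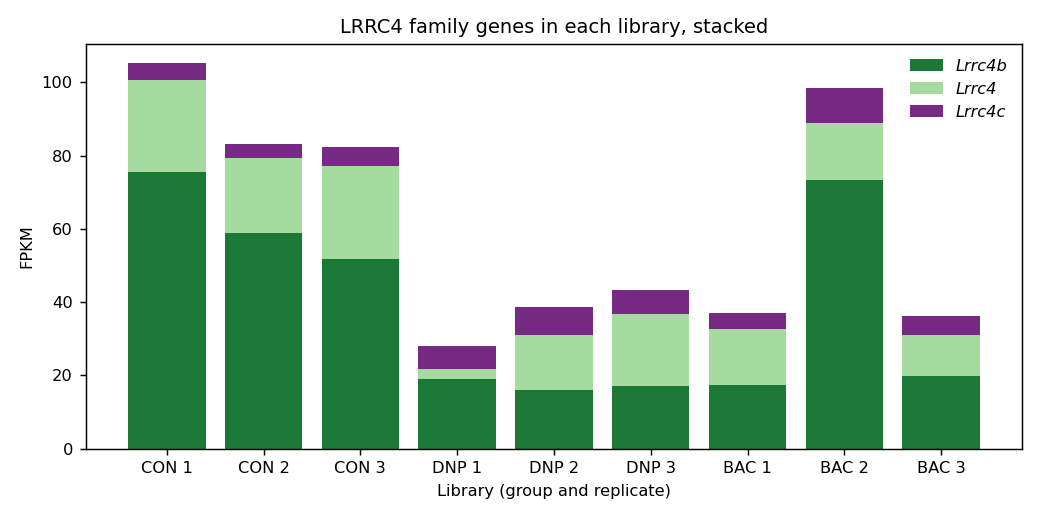
FPKM of Lrrc4b, Lrrc4 and Lrrc4c (vertical axis, stacked from 0) in each of the 9 libraries. The CON libraries and BAC 2 had tall bars made mostly of Lrrc4b, while Lrrc4b reached 15.9 to 19.0 FPKM in DNP.

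Nrxn2 had the smallest p of the 9 genes in DNP against CON. Its coefficient of variation within DNP was 1.37%. At 3971 to 4455 counts, counting error alone would give a spread at least as large, so this value is not read as a trait of the gene. It had 485, 508 and 390 CPM in CON, 288, 285 and 293 in DNP, and 357, 381 and 306 in BAC. The 3 groups did not overlap, with BAC between DNP and CON. Nrxn2 was lower in DNP than in CON (log2 fold change -0.68, SE 0.15, edgeR adjusted p = 0.294), and DESeq2 called it with an adjusted p of 0.00296. Its p was under 0.05 in all 19 alternatives, whose log2 fold changes ran from -0.78 to -0.42, and the adjusted p of these ran up to 0.628. In BAC it was 0.27 above DNP on the log2 scale (SE 0.15, edgeR adjusted p = 0.998) and 0.41 below CON (-0.41, SE 0.15, adjusted p = 0.628). The gap between BAC and CON had an unadjusted p over 0.05 without CON 1 (-0.37), CON 2 (-0.33) or BAC 3 (-0.33), and with these 2 groups alone (-0.39). The same held with the marker scores as covariates (-0.29) and with the length and GC correction described below (-0.14). The gap was -0.19 among libraries poor in cerebellum and brainstem markers.

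Nrxn3 followed Nrxn2 with a smaller difference. Its values were 223, 253 and 232.5 CPM in CON, 191, 197 and 154 in DNP, and 198.5, 211 and 177 in BAC. All DNP and BAC libraries were below all CON libraries, and DNP and BAC overlapped. The log2 fold change was -0.39 in DNP against CON (SE 0.15, edgeR adjusted p = 0.395), -0.27 in BAC against CON (SE 0.15) and 0.11 in BAC against DNP (SE 0.15). The first had an unadjusted p over 0.05 without CON 2 (-0.34), CON 3 (-0.40) or DNP 3 (-0.28), and with these 2 groups alone (-0.37). The same held with the marker scores as covariates (-0.23) and with the length and GC correction described below (-0.13). The ratio of Nrxn2 to Nrxn3 in FPKM was 2.05 ± 0.265 in CON (SD, n = 3 each), 1.70 ± 0.256 in DNP and 1.87 ± 0.0448 in BAC, with overlapping groups.

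Igsf9b, the adhesion protein of inhibitory synapses, was lower in DNP in every library. It had 173, 254 and 247 CPM in CON, 99.1, 141 and 142.5 in DNP, and 177, 130.5 and 102 in BAC. The CON and DNP libraries did not overlap, while BAC 1 lay within the CON range and the other BAC libraries near DNP. Igsf9b was 1.76-fold lower in DNP than in CON (log2 fold change -0.82, SE 0.25, edgeR adjusted p = 0.353) and 1.65-fold lower in BAC than in CON (-0.72, SE 0.25, adjusted p = 0.628). With scores of the cerebellum and brainstem markers as covariates the values were -0.11 and 0.024, with edgeR adjusted p-values of 0.898 and 0.986. Among libraries poor in those markers, DNP against CON was -0.57, with an unadjusted p under 0.05. The gap of BAC to CON had an unadjusted p over 0.05 without CON 2 (-0.62), CON 3 (-0.65), BAC 2 (-0.69) or BAC 3 (-0.55). The same held with the length and GC correction described below (-0.52).

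Among the neuroligins, Nlgn2 separated CON from DNP in CPM but not in FPKM, without reaching an unadjusted p of 0.05. Nlgn2, the neuroligin of inhibitory synapses, had 415, 378 and 320 CPM in CON, 270, 320 and 294 in DNP, and 244, 346.5 and 264.5 in BAC. The lowest CON library (319.8) and the highest DNP library (319.7) were nearly equal, so the groups were only just separate. In FPKM they overlapped, with 42.9 in CON 3 and 44.2 in DNP 2. The log2 fold change was -0.33 in DNP against CON (SE 0.18, edgeR adjusted p = 0.518) and -0.38 in BAC against CON (SE 0.18). Nlgn3 had 149, 107 and 139 CPM in CON, 87.3, 119.5 and 109 in DNP, and 85.3, 125 and 95.7 in BAC. Its groups overlapped, and DNP differed from CON by -0.33 (SE 0.20), a value with the limit on its counts given above. It was -0.56 with the marker scores as covariates and -0.34 in the libraries poor in those markers, both with an unadjusted p under 0.05, and -0.042 with the length and GC correction.

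Nlgn1, the neuroligin of excitatory synapses, overlapped between the groups over all libraries. It had 67.5, 25.8 and 62.1 CPM in CON, 47.7, 41.0 and 42.9 in DNP, and 30.7, 57.4 and 35.0 in BAC. The lowest library of all was CON 2, the one with the most cerebellum marker RNA (6215 CPM), and BAC 1, with the second most (3167), was the lowest BAC library. Other libraries did not follow this order. DNP 1, with the most in DNP (690), was the highest DNP library, and CON 3 and BAC 3, with 1057 and 1119, had 62.1 and 35.0 CPM of Nlgn1. The part of cerebellum RNA in these values was not tested. DNP differed from CON by -0.24 (SE 0.36, edgeR adjusted p = 0.854). Among libraries poor in cerebellum and brainstem markers the difference was -0.63, with 67.5 and 62.1 CPM in CON 1 and CON 3 and 41.0 and 42.9 in DNP 2 and DNP 3. So few libraries separate easily, and no share of all genes was counted for this subset. With the marker scores as covariates the difference was -1.10 (edgeR adjusted p = 0.357). The value with the covariates had an unadjusted p under 0.05, while the length and GC correction gave a log2 fold change of 0.073. Within the neuroligins, Nlgn2 made up 77.7% ± 4.52 of their summed FPKM in CON (SD, n = 3 each), 77.5% ± 0.637 in DNP and 77.6% ± 0.656 in BAC. Within CON the shares spread, with Nlgn1 at 2.09% in CON 2 and 5.31% in CON 3 and Nlgn3 at 15.4% and 21.1%, and in DNP and BAC Nlgn1 took 3.67% to 5.14%.

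The second comparison asked whether baclofen-treated mice differed from untreated DNP mice. Of the 9 genes, 5 lay above DNP and 4 below it, with a median log2 fold change of 0.10 beside -0.01 for all genes. No member had an unadjusted p under 0.05 in edgeR (1.00% of all genes lower and 1.37% higher), and no gene passed the adjusted threshold (0%, smallest adjusted p 0.998). Groups did not overlap for 1 of the 9, Nrxn2, which was higher in BAC, beside 3.41% of all genes lower and 3.38% higher. Apart from Nrxn2 and Lrrc4b the log2 fold changes lay between -0.13 and 0.14. The direction of 7 of these was not settled, since each turned under at least 1 alternative. Such a difference from DNP was not detectable with 3 mice per group, and the data do not show that baclofen left these genes as they were.

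The third comparison set BAC mice against controls, and shares its libraries with the other comparisons. In BAC, 8 of the 9 genes lay below CON and Lrrc4c above it (0.48, SE 0.30), with a median log2 fold change of -0.38 beside -0.02 for all genes. Unadjusted p was under 0.05 for 2 of them, Nrxn2 and Igsf9b, both lower, beside 3.30% of all genes lower and 4.46% higher. Nrxn2, Nrxn3 and Lrrc4 did not overlap with CON, all lower, beside 6.23% of all genes lower and 7.21% higher. None passed the adjusted threshold in edgeR (0% of all genes). The choice of the 9 genes with earlier results known limits these counts too.

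**Figure D3:**
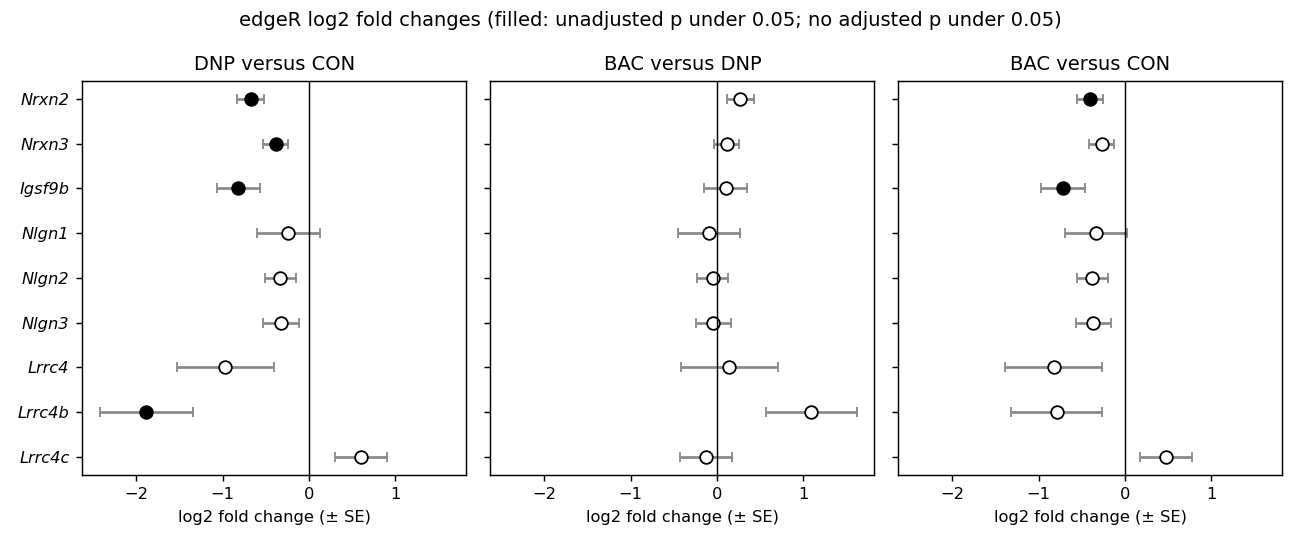
Log2 fold changes with SE (horizontal axes) of the 9 genes in the 3 comparisons, from edgeR's quasi-likelihood fit. Filled points had an unadjusted p under 0.05: 4 genes in DNP against CON, none in BAC against DNP and 2 in BAC against CON.

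Transcript length moved with the difference between DNP and CON across all genes. Over 5 groups of equal size, from the shortest to the longest transcripts, the median log2 fold change of all genes tested was 0.21, 0.12, 0.02, -0.06 and -0.22, and 6 of the 9 genes (all but the LRRC4 family) fell in the longest of these groups, of at least 4808 bases. With an offset for transcript length and GC content, added after seeing the data, Nrxn2 in DNP against CON was -0.42 (edgeR adjusted p = 0.616), Nrxn3 was -0.13, Igsf9b was -0.44 and Nlgn1 was 0.073. Lrrc4b, with a transcript of 2728 bases, was -1.88 and Lrrc4c 0.62. Members at an unadjusted p under 0.05 were then 2 in place of 4, with no share of all genes counted under the offset. The values of the LRRC4 genes thus stayed near those without the offset, and those of the longer genes became smaller.

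**Figure D4:**
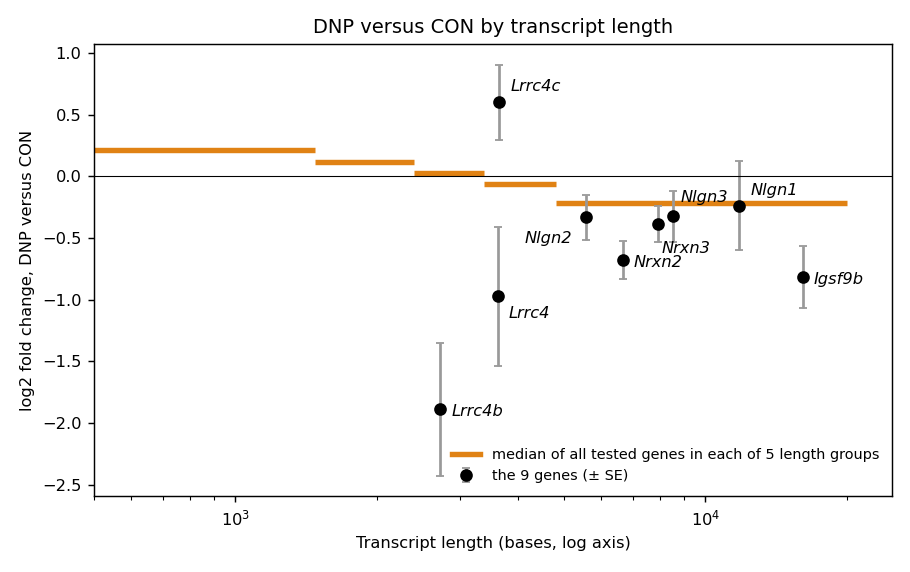
Log2 fold change of DNP against CON (vertical axis, ± SE) by transcript length (horizontal log axis) for the 9 genes, with the median of all genes tested in each of 5 length groups as bars. The bars descend from 0.21 to -0.22, Lrrc4b, Lrrc4, Nrxn2 and Igsf9b lie well below them, and Lrrc4c lies above.

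Over the settings tried, Lrrc4b ran from -2.06 to -1.69 in DNP against CON and from 0.049 to 2.20 in BAC against DNP.

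**Figure D5:**
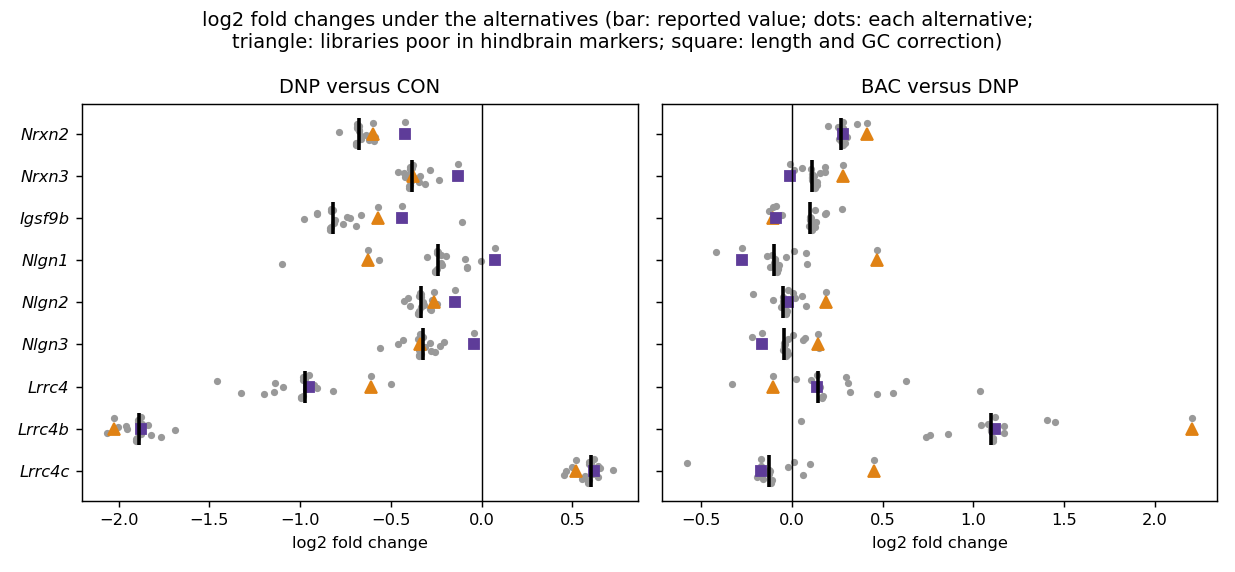
Log2 fold changes of the 9 genes (horizontal axes) in DNP against CON and BAC against DNP under the 19 alternatives (dots), with the reported value as a bar, the libraries poor in cerebellum and brainstem markers as triangles and the length and GC correction as squares. Lrrc4b stayed between -2.06 and -1.69 in the first panel and between 0.049 and 2.20 in the second.

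Other genes of the synaptic adhesion machinery were counted in 5 lists. The lists were chosen with earlier results of these data known, so their counts are not independent evidence. They were not matched to all genes for transcript length, and the part of length in their counts and medians was not tested. Of 25 neurexin ligands and organizers, 4 had an unadjusted p under 0.05 in DNP against CON and all were lower, with a list median of -0.32, beside 5.46% of all genes lower, 5.71% higher and a median of 0.01 over all genes. In BAC against CON 5 of the 25 were lower and 0 higher, beside 3.30% and 4.46% of all genes. The 4 genes lower in DNP against CON were Adgrl3, a latrophilin (113 ± 10.3 CPM in CON, 70.1 ± 17.2 in DNP, log2 fold change -0.69), Car10 (-0.62), Dag1, the dystroglycan gene (-0.60), and Clstn2, a calsyntenin (-0.51). Adgrl3 was 0.47 above DNP in BAC (SE 0.18, edgeR adjusted p = 0.998), the one gene of that list with an unadjusted p under 0.05 in that comparison, beside 1.37% of all genes higher.

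None of 5 partners of the LRRC4 family, the netrin-G genes Ntng1 and Ntng2 and the LAR-type phosphatases Ptprf, Ptprd and Ptprs, had an unadjusted p under 0.05 in any comparison, and their median in DNP against CON was -0.13. Likewise none of 7 regulators of neuroligins and inhibitory scaffold genes did (median -0.18). Excitatory scaffold genes and cytoplasmic partners of neurexins were 18 genes counted as 19, since Dlg2 has 2 identifiers. Of these, 18 lay below CON in DNP, beside 48.6% of all genes. The list median was -0.42, beside -0.22 for all genes in the longest of the 5 length groups. The 4 with an unadjusted p under 0.05 were all lower, beside 5.46% of all genes: Shank3 (405 ± 5.47 CPM in CON, 222 ± 70.0 in DNP, log2 fold change -0.87), Shank2 (-0.98), Lin7a (-1.52) and Dlg2 (-0.52).

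Of 30 other synaptic adhesion genes, 4 were lower in DNP at an unadjusted p under 0.05 and 1 was higher, beside 5.46% and 5.71% of all genes, with a median of -0.23. The lower genes were Cadm3 (-1.05), Slitrk2 (-1.25), Tenm1 (-1.37) and Cadm1 (-0.63), the last named after its values were seen. The higher gene was Slitrk6, at 0.507 ± 0.317 CPM in CON and 2.55 ± 1.16 in DNP (log2 fold change 2.31, SE 0.58, edgeR adjusted p = 0.306). Its CON libraries, at 0.464, 0.214 and 0.843 CPM, lay near the floor, where counting error is not small. In BAC against DNP, Slitrk2 (1.00) and Tenm1 (1.10) were higher at an unadjusted p under 0.05 in edgeR, beside 1.37% of all genes. Adjusted p was under 0.05 in edgeR for no gene of the 5 lists in any comparison.

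As a description, the genes most like Lrrc4b over the 9 libraries, out of 12903 with a mean of at least 5 CPM, were Zfp316, Atxn1l and Rnf145 (Pearson's r of log2 CPM 0.943, 0.940 and 0.937). Those most like Nrxn2 were Zfp142 (0.982), L3mbtl2 (0.978) and Vps26b (0.970). Nlgn1 was most like Ids (0.990), and Lrrc4c most like Snhg8 (0.958) and Rpl41 (0.955). The libraries compared share group and regional makeup, and nothing is drawn from this likeness.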

How the data were processed

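Poly(A) RNA of 9 whole brains (3 CON, 3 DNP, 3 BAC mice) gave paired-end libraries that do not keep strand. Per the labels and the submitters' processing notes, tools included FastQC 0.11.9, fastp, Bowtie2 2.3.4.1, HISAT2 2.1.0 and StringTie 1.3.3b, with GRCm38. The authors deposited raw counts per gene, with no normalization. The authors also deposited FPKM values. Each FPKM equals the count divided by a gene length and the library total (lengths agreed between libraries within a ratio of 1.000417 over 13778 genes), so no TMM factor is included. How reads of several genes were counted is not given in the sources used here.

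Counts were analysed in R 4.3.3 with edgeR 4.0.16: filterByExpr with a minimum count of 10, TMM scaling, and a quasi-likelihood fit of all 9 libraries by group, two-sided, adjusted over 18501 genes with a threshold of 0.05. CPM are TMM-scaled. Totals of 13107382 to 16008129 counts and a spread between mice (edgeR's biological coefficient of variation) of 36.5% limit the precision. Between libraries of 1 group the chi-square per degree of freedom was 15.7 to 121.8, so no library was a repeat of another. Alternatives were DESeq2 1.42.0, its size factors, no filter, limma 3.58.1 on log2 FPKM with pseudocounts of 1 and 0.1, marker scores as covariates, a replicate block, 2 groups alone and each library left out. The fit was tested on simulated data. Transcript length and GC content came from GENCODE (18454 of 18501 genes matched).

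The 9 genes and the gene lists were chosen with earlier results of these data known. Named besides the 9 are up to 4 genes per list with the smallest unadjusted p under 0.05 in DNP against CON and a mean of at least 1 CPM, the 3 genes most like each of the 9, and marker genes. Summed CPM of 13 marker lists with 91 genes are given by range or as overlapping between groups. Cadm1 and the 5 partners of the LRRC4 family are named outside this rule, Cadm1 after its values were seen.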

Additional observations from a re-analysis of the deposited data

How the results depend on the processing

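With 3 mice per group and no gene past the adjusted threshold in edgeR, the design resolves only large differences. The regional makeup of the libraries is uneven between groups, and with 1 BAC library poor in cerebellum and brainstem markers it cannot be told apart from treatment. For single genes, 152 of 171 values in DNP against CON kept their direction and side of an unadjusted p of 0.05, as did 138 of 171 in BAC against DNP and 142 of 171 in BAC against CON. The cause was not tested for any change below unless the setting itself removes libraries.

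DESeq2 called 346 genes in DNP against CON (150 higher), 7 in BAC against DNP (4 higher) and 101 in BAC against CON (64 higher), where edgeR called 0 in each. In edgeR without adjustment, 1011 genes were lower and 1056 higher at p under 0.05 in DNP against CON, 185 and 253 in BAC against DNP, and 610 and 826 in BAC against CON. With cerebellum and brainstem scores as covariates edgeR called 1 gene in DNP against CON and 3 in BAC against CON. Members of the group of 9 with an unadjusted p under 0.05 in DNP against CON numbered 8 in the libraries poor in cerebellum and brainstem markers and 2 with the length and GC correction, in place of 4. In BAC against DNP they numbered 1 with DESeq2, 1 with the covariates and 1 with the length and GC correction, in place of 0. In BAC against CON they numbered 0 with the length and GC correction, in place of 2. Leaving out each library in turn gave 0 to 1 genes called in DNP against CON, 0 in BAC against DNP and 0 to 1 in BAC against CON, and 3 to 5, 0 to 1 and 0 to 4 of the 9 genes. The share of all genes at an unadjusted p under 0.05 was not counted under any alternative. These counts of the 9 genes, and those with the replicate block below, therefore have no background beside them.

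Directions turned most often in BAC against DNP, where 25 values turned, against 3 in BAC against CON and 1 in DNP against CON. With the covariates the log2 fold changes there were 0.084 for Nlgn1, 0.075 for Nlgn2, 0.15 for Nlgn3 and 0.064 for Lrrc4c, and in BAC against CON 0.22 for Lrrc4 and 0.024 for Igsf9b. In the libraries poor in those markers they were 0.47 for Nlgn1, 0.19 for Nlgn2, 0.14 for Nlgn3, -0.11 for Lrrc4, 0.46 for Lrrc4c and -0.11 for Igsf9b, and 0.18 for Lrrc4b in BAC against CON. With the length and GC correction Nrxn3 was -0.0076 and Igsf9b -0.085, and Nlgn1 in DNP against CON was 0.073. Leaving out each library in turn gave, in BAC against DNP, ranges of -0.42 to 0.077 for Nlgn1, -0.21 to 0.056 for Nlgn2, -0.22 to 0.072 for Nlgn3, -0.33 to 0.63 for Lrrc4, -0.58 to 0.10 for Lrrc4c and -0.13 to 0.28 for Igsf9b. These turned without DNP 1 (Lrrc4, Igsf9b), DNP 2 (Nlgn2, Nlgn3), BAC 1 (all but Lrrc4) or BAC 3 (Nlgn1, Nlgn2, Nlgn3, Lrrc4c).

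A replicate block left 4, 0 and 2 of the 9 below an unadjusted p of 0.05 in the 3 comparisons and 0 genes called. The numbers do not pair the samples: deviations of 9 same-numbered pairs correlated between -0.56 and 0.55, 3 of them over 0.1, and 2 of 9 libraries correlated best with their own number.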
